A study of Mus musculus with 8 samples.

Results

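A set of 6 genes of neurotrophic signaling was examined in primary mouse astrocytes: the secreted factors *Bdnf*, *Gdnf* and *Manf*, and the receptors *Ntrk2* (TrkB), *Ntrk3* (TrkC) and *Ngfr* (p75NTR). They were chosen by name, and all 6 were found by gene symbol among the 13937 genes of the deposited count table. All 6 also passed the filter on low counts, which left 13509 genes to be tested. The cells were neonatal astrocytes from the brains of pups aged 1 day on a C57BL/6 background, either wild type (WT) or RGC-32 knock-out (KO), and all were grown in medium with serum, freed of the meninges at the start and of loose cells by shaking, and then kept without serum overnight. Each genotype was studied untreated (control) and after 24 h of TGF-β stimulation (10 ng/ml). There were 4 groups of 2 libraries, 8 in all. RGC-32, the product of *Rgcc*, acts downstream of TGF-β, and the design asks how TGF-β changes the transcriptome and how much of that change depends on RGC-32. The sources used here call the replicates biological but do not say whether they came from separate litters or cultures, so the p-values below measure only the spread between these libraries, which may be technical.

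Neurotrophins are secreted as precursors, cleaved, and bound by Trk receptor tyrosine kinases, whereas their precursors bind p75NTR together with a sortilin-type receptor. BDNF acts through TrkB and neurotrophin-3 through TrkC, and astrocytes are best known for a truncated TrkB that lacks the kinase domain. GDNF belongs to another family, the distant relatives of TGF-β that bind a GFRα co-receptor and signal through the RET kinase or NCAM. MANF is a small protein of the endoplasmic reticulum (ER) that is made when unfolded proteins accumulate and can be released from the cell, with KDEL receptors holding it back. Astrocytes are a known source of all 3 factors in the injured brain.

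The libraries held between 14920561 and 18956038 counts. *Rgcc* itself was counted 80 and 94 times in the WT control libraries, 215 and 362 times in WT with TGF-β, 61 and 28 times in the KO control libraries and 64 and 26 times in KO with TGF-β. It was therefore lower in both KO groups than in the matching WT groups without overlap, but it was not at 0, and the deleted stretch of the gene is not given in the sources used here. Its rise with TGF-β passed the test in WT (log2 fold change 1.69 ± 0.44 SE, n = 2 libraries a group, adjusted p = 0.0221) and not in KO (0.12 ± 0.58, adjusted p = 0.890), though the difference between these responses did not pass (adjusted p = 1.00). Of 7 genes known to answer TGF-β, all were tested and 6 were called higher in each genotype, beside 7.72% of all genes in WT and 6.61% in KO. *Smad7* was higher by 1.35 in WT and 1.16 in KO on the log2 scale. All 10 astrocyte markers were in the count table, and *Gfap*, the astrocyte intermediate filament, had 18698 to 44769 counts per library.

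The windows around the annotated starts of the genes (250 bases before to 50 after) were searched on both strands for 5 short motifs, and the stretches that held one are shown because *Bdnf* and *Gdnf* rose together. The table of windows, from RefSeq on the GRCm38.p6 build, held 7 for *Bdnf*, 2 for *Gdnf* and 1 each for *Ntrk2* and *Ngfr*, so 11 in all for 4 of the 6 genes. The core of the cAMP response element (CRE), TGACG, lay in 1 *Bdnf* window and 1 *Gdnf* window, read on the opposite strand in both, 35 and 50 bases before the start. The SMAD motif CAGACA lay in another *Bdnf* window, 21 bases before its start. Each line gives the 120 bases before one start, 5′ to 3′ on the plus strand, with the motif in capitals; the first *Bdnf* stretch is chr2:109692316-109692435, the second chr2:109722801-109722920, and that of *Gdnf* chr15:7809928-7810047.
Bdnf, CRE core: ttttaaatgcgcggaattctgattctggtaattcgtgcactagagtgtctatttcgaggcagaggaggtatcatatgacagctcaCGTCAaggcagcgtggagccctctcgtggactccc
Bdnf, SMAD motif: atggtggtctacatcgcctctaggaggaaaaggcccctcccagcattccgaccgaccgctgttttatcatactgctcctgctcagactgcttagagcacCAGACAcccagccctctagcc
Gdnf, CRE core: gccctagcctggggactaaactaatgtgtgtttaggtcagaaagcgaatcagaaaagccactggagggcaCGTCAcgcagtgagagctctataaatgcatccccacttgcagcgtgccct
These short motifs are common. The CRE core was in 6837 (20.8%) and the SMAD motif in 6913 of all 32851 windows of the same length, against 2 and 1 of the 11 windows here. The E-box CACGTG (7.15% of all windows) and the AP-1 site (TGAGTCA or TGACTCA, 5.20%) were in none of the 11.

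*Bdnf*, *Gdnf* and *Manf* rose with TGF-β in both genotypes, *Bdnf* by the most. A gene was called changed when its adjusted p (edgeR quasi-likelihood test, Benjamini-Hochberg over all genes tested) was under 0.05 and its log2 fold change was at least 0.6 in size. By this rule 3 of the 6 genes were higher and 0 lower in WT astrocytes, where 7.72% of all genes tested were called higher and 5.65% lower. The same 3 were higher and 0 lower in KO astrocytes, against 6.61% and 4.93% of all genes. Of all called genes 57.8% were higher in WT and 57.3% in KO, or 44.8% and 45.5% with upper quartile scaling, which changed no call among the 6. The levels of each library are given below as CPM, counts scaled to the size of the library with TMM factors.

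*Bdnf*, the TrkB ligand, was measured at 19.1 and 21.5 CPM in the WT control libraries and at 43.3 and 56.0 CPM in WT with TGF-β. In KO it was at 19.3 and 18.3 CPM without and at 44.0 and 42.7 CPM with TGF-β. Every stimulated library thus lay above every control library, as for 23.3% of all genes, and the controls of the genotypes sat side by side. *Bdnf* was up-regulated 2.44-fold in WT (log2 fold change 1.29 ± 0.12 SE, adjusted p = 0.000402) and 2.30-fold in KO (1.20 ± 0.13, adjusted p = 0.000679). *Bdnf* lies on chr2:109674700-109727007 (plus strand, GRCm38, GENCODE M21), and 896 bases, or 14.4%, of its exons are shared with the antisense gene *Gm45346*. The libraries were unstranded, so reads of the pair cannot be told apart there.

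*Gdnf*, on chr15:7810846-7837575, was the scarcer ligand, with 58 to 72 counts in a control library and 103 to 154 in a stimulated one. It was at 3.74 and 4.30 CPM in WT control, 8.51 and 6.59 CPM in WT with TGF-β, 3.70 and 3.91 CPM in KO control and 7.50 and 7.86 CPM in KO with TGF-β. Again no stimulated library overlapped a control library. *Gdnf* was up-regulated 1.88-fold in WT (0.91 ± 0.17, adjusted p = 0.00592) and 2.02-fold in KO (1.01 ± 0.17, adjusted p = 0.00494). On the deposited FPKM values the change stayed under the fold limit in WT with a pseudocount of 1 (0.40) and in KO with a pseudocount of 0.1 or 1 (0.60, just under it, and 0.34).

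*Manf*, on chr9:106838312-106891979 (minus strand), was at 107 and 111 CPM in WT control and at 176 and 191 CPM in WT with TGF-β. The KO libraries held 116 and 104 CPM without and 173 and 182 CPM with TGF-β. The spread within each group was small beside the step between them. *Manf* was up-regulated 1.68-fold in WT (0.75 ± 0.073, adjusted p = 0.000401) and 1.61-fold in KO (0.69 ± 0.073, adjusted p = 0.000682). Of its exons, 4.14% are shared with *Dcaf1* and 4.71% with *4930524O07Rik*, both on the opposite strand. Its size is close to the fold limit: computed from FPKM it was 0.57 in WT and 0.50 in KO with either pseudocount, with adjusted p between 0.000657 and 0.00108, so that it missed the limit on fold alone.

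**Figure D1:**
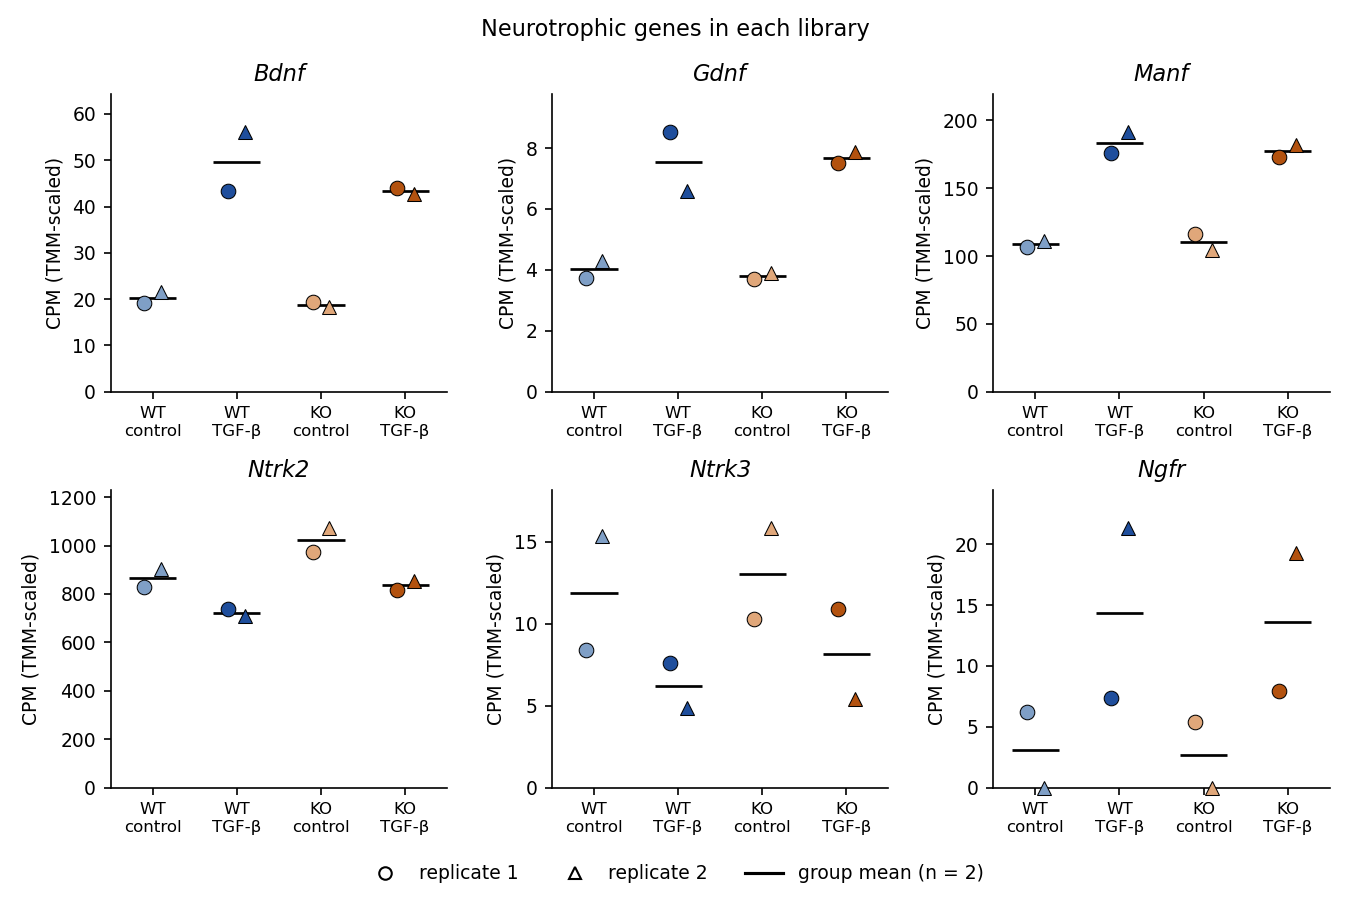
Level of the 6 genes in each of the 8 libraries, in TMM-scaled CPM on a linear axis from 0; circles are replicate 1, triangles replicate 2, and the line is the mean of the 2 libraries. Every TGF-β library lies above every control library for *Bdnf*, *Gdnf* and *Manf*, while *Ngfr* has no count in replicate 2 of either control group.

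None of the receptors passed both limits in either genotype. *Ntrk2*, on chr13:58806569-59133970, was by far the best counted, with 11069 to 18087 counts per library. It was at 829 and 902 CPM in WT control, 736 and 708 CPM in WT with TGF-β, 975 and 1071 CPM in KO control and 816 and 855 CPM in KO with TGF-β. Within each genotype the stimulated libraries were lower without overlap, as were 33.7% of all genes in WT and 32.9% in KO. With log2 fold changes of -0.26 ± 0.079 (WT, adjusted p = 0.0381) and -0.29 ± 0.079 (KO, adjusted p = 0.0286), *Ntrk2* passed the p limit, as 14.3% and 11.8% of all genes did in that direction, but not the fold limit. Without WT TGF-β replicate 2 the adjusted p in WT was 0.159, and without KO TGF-β replicate 1 that in KO was 0.158.

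*Ntrk3*, on chr7:78175959-78738012 (minus strand), had 76 to 267 counts per library, and replicates of one group differed by as much as the groups or more. It was at 8.38 and 15.3 CPM in WT control, 7.57 and 4.86 CPM in WT with TGF-β, 10.3 and 15.8 CPM in KO control and 10.9 and 5.42 CPM in KO with TGF-β. The WT groups did not overlap, but the KO groups did. Neither log2 fold change passed, that in WT being -0.93 ± 0.42 (adjusted p = 0.125) and that in KO -0.68 ± 0.41 (adjusted p = 0.246). Leaving out 1 library at a time gave values of -1.29 to -0.44 in WT, and of -1.27 to -0.28 in KO. DESeq2 called it lower in WT (-0.94, adjusted p = 0.0353), and in all 2 of 21 alternatives did so in WT and 1 of 21 in KO. The other in WT and the only one in KO was a fit added after seeing the data.

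*Ngfr*, on chr11:95568818-95587735 (minus strand), was far more uneven between replicates. It was counted 97 times in WT control replicate 1 and 85 times in KO control replicate 1, but 0 times in control replicate 2 of either genotype, where 0 allows up to 3 counts, or 0.179 CPM in WT and 0.178 CPM in KO. With TGF-β it was counted 134 and 333 times in WT and 119 and 292 times in KO, which is 7.41 and 21.3 CPM and 7.97 and 19.3 CPM. The control libraries of replicate 1 held 6.26 and 5.42 CPM, close to the lower of the stimulated libraries, while the highest level was in replicate 2 of the stimulated groups. All 4 stimulated libraries were above all 4 control libraries, as for 23.3% of all genes. Even so, the fitted log2 fold changes, 2.22 ± 1.24 for WT (adjusted p = 0.207) and 2.36 ± 1.28 for KO (adjusted p = 0.201), did not pass. Leaving out 1 library gave 1.16 to 10.84 in WT, and 1.33 to 10.77 in KO, so the size of the change is not settled by these libraries. Of 20 alternatives 1 called it higher in each genotype, a fit added after seeing the data. Without WT control replicate 1 and without KO control replicate 1, only a library at 0 was left as the control.

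**Figure D2:**
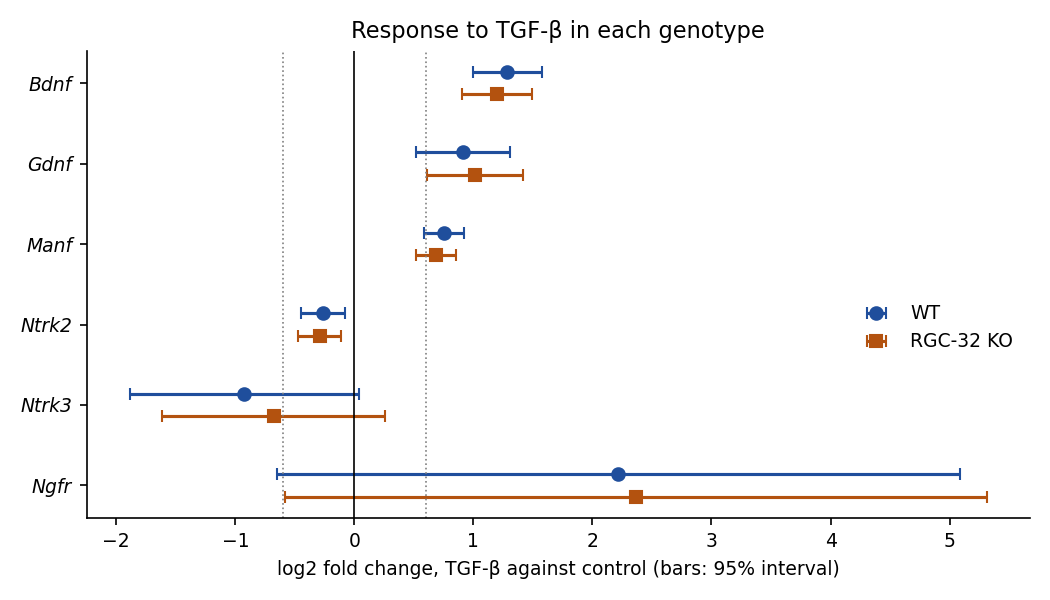
Log2 fold change of each gene with TGF-β in WT (circles) and RGC-32 KO (squares) astrocytes, with 95% intervals from the edgeR fit of 2 libraries a group; the dotted lines mark the fold limit of 0.6. The intervals of *Bdnf*, *Gdnf* and *Manf* lie above 0 in both genotypes, that of *Ntrk2* lies below 0 inside the limit, and those of *Ntrk3* and *Ngfr* span 0.

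A search over 11587 genes with a mean of at least 5 CPM was made for those whose log2 CPM followed each of the 6 most closely across the 8 libraries. For *Ngfr* these were *Stra6* (Pearson r = 0.999), a receptor for retinol binding protein, *Crispld2* (0.992) and *Acan* (0.991), the core protein of aggrecan. Only 3 of the 13937 genes had no count in control replicate 2 of both genotypes with at least 50 counts in control replicate 1 of both, and they were *Ngfr*, *Stra6* and *Acan*. The reverse pattern was met by 1 gene, *Il6*. *Ntrk3* followed *Plcb4* (r = 0.996), a phospholipase C, and ran against *Ngfr* (r = -0.88, Spearman rho = -0.86), being highest in the control libraries where *Ngfr* was at 0. These coefficients describe 8 libraries that share the step between treatments, and they carry no test.

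**Figure D3:**
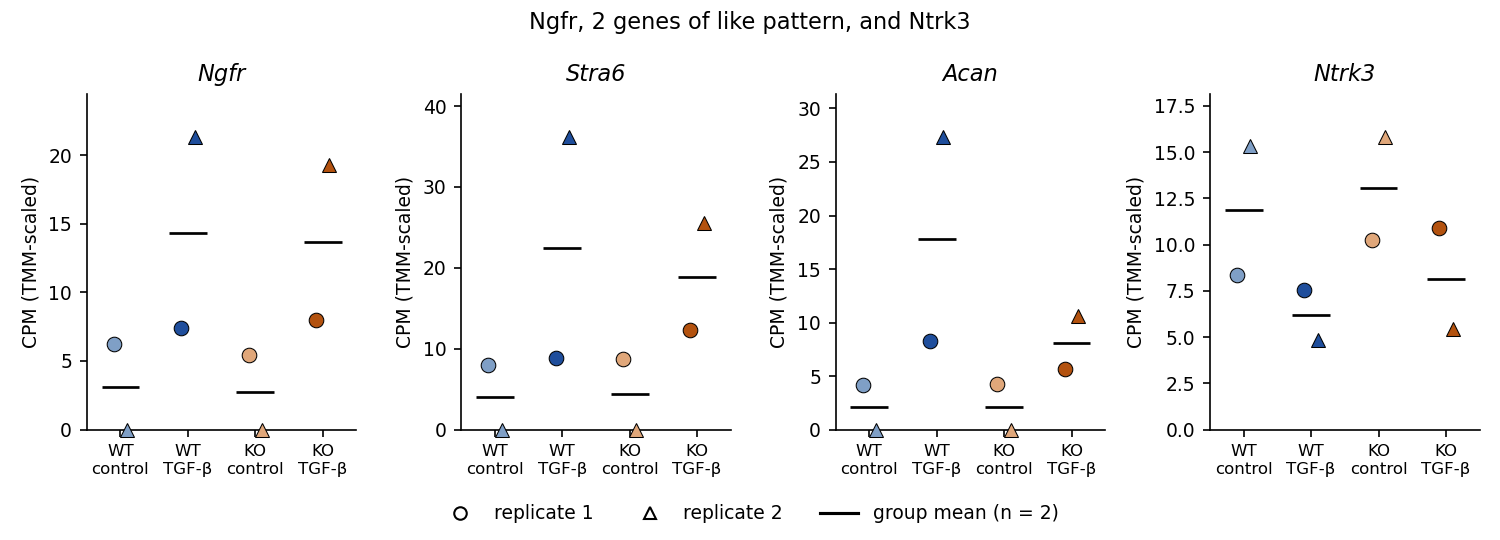
TMM-scaled CPM of *Ngfr*, of *Stra6* and *Acan*, which follow it, and of *Ntrk3* in each library; circles are replicate 1, triangles replicate 2, lines the mean of 2. *Ngfr*, *Stra6* and *Acan* lie at 0 in control replicate 2 of both genotypes and are highest in TGF-β replicate 2, while *Ntrk3* is highest in control replicate 2.

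The same search placed *Bdnf* beside *Aldh18a1* (r = 0.999), an enzyme of proline synthesis, *Mllt11* (0.998) and *Mex3c* (0.997). *Gdnf* was followed by *D630003M21Rik* (0.993), *Alg5* (0.993) and *Rab15* (0.990). *Manf* was followed by *Gmppb* (0.997), which makes GDP-mannose, *Ltbp3* (0.997), a latent TGF-β binding protein, and *Srm* (0.997), the spermidine synthase. *Ntrk2* was followed by *Acss1* (0.990), *Tagln3* (0.987) and *Dusp10* (0.987). Among the 6 genes themselves, *Bdnf* and *Manf* had the highest Pearson r (0.99, rho = 0.88), and *Ngfr* and *Manf* the highest Spearman rho (0.90, r = 0.73).

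Levels of different genes were compared only per length, on the deposited FPKM values (group means ± SD of 2 libraries). *Manf* stood highest, at 125 ± 4.39 FPKM in WT control and 186 ± 1.40 with TGF-β, and at 129.98 ± 7.18 and 183 ± 0.470 in KO. *Ntrk2* came next, at 106 ± 7.04 and 82.1 ± 3.97 in WT and 128 ± 8.54 and 93.7 ± 3.70 in KO. In KO control the ranges of the pair met (125 to 135 FPKM for *Manf*, 122 to 134 for *Ntrk2*), so their order there is not resolved, whereas after TGF-β they were well apart. *Bdnf* followed in every group, with 4.74 and 5.26 FPKM in the WT control libraries and 9.40 and 10.9 with TGF-β. *Ntrk3*, *Ngfr* and *Gdnf* lay lower, at 5.27 FPKM at most, *Ngfr* being listed at 0 in control replicate 2 of both genotypes, and their order changed from group to group. The order depends on the length used: in CPM per kb of all annotated exons *Ntrk2* led *Manf* in both control groups (44.9 against 30.9 in WT, 53.0 against 31.3 in KO), and *Ntrk3* was last in all 4 groups. The counts are per gene, and they do not separate full-length from truncated receptors.

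**Figure D4:**
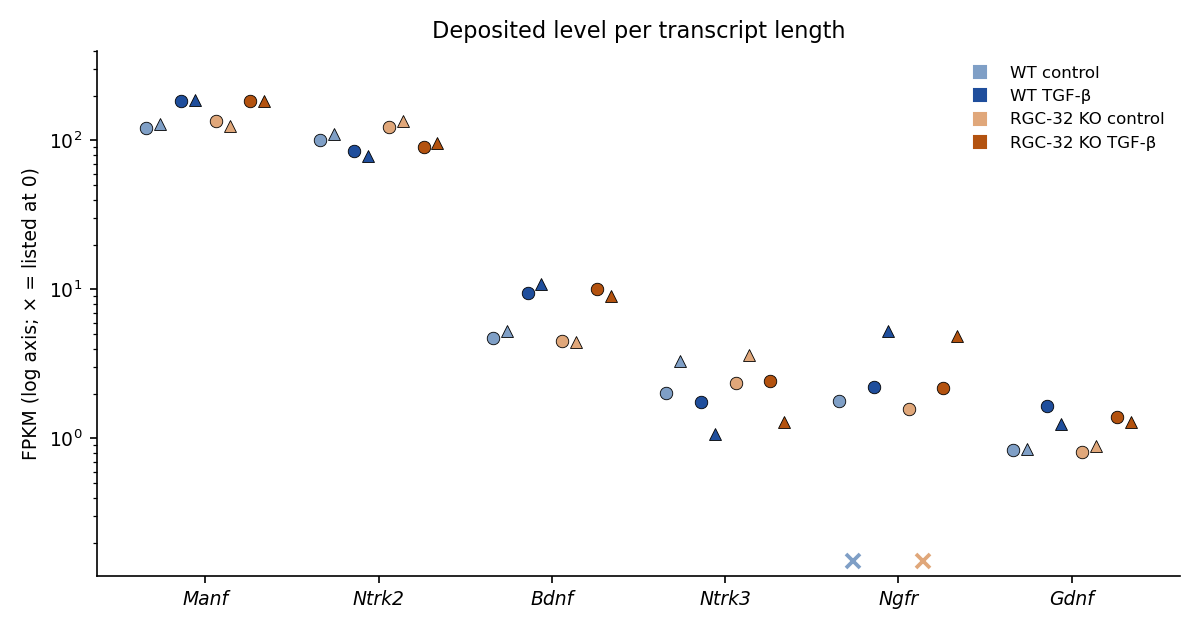
Deposited FPKM of the 6 genes in each library on a log axis, grouped by genotype and treatment; circles are replicate 1, triangles replicate 2, and a cross marks a library listed at 0. *Manf* and *Ntrk2* lie between 79.3 and 187 FPKM, *Bdnf* between 4.44 and 10.9, and *Ntrk3*, *Ngfr* and *Gdnf* below *Bdnf* in each group.

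RGC-32 was next considered. None of the 6 genes differed between WT and KO astrocytes by the rule above: 0 of 6 were called without TGF-β, with TGF-β and over both treatments, where 0.037%, 0.0444% and 0.126% of all genes were. At an unadjusted p under 0.05 there was 1 of the 6 in each of these comparisons, *Ntrk2*, against 6.84%, 11.7% and 15% of all genes, and DESeq2 and limma-voom called 0 of the 6. For *Ntrk2* the log2 difference of WT from KO was -0.24 ± 0.079 without TGF-β (adjusted p = 0.640), -0.21 ± 0.079 with TGF-β (adjusted p = 0.373) and -0.23 ± 0.056 over both (adjusted p = 0.131, 0.0249 to 0.445 under the alternatives). None of these passed. The WT libraries lay below the KO libraries without overlap in each treatment, as did 15.5% of all genes in the controls and 23.9% with TGF-β. The sum of the 10 astrocyte markers, most of it *Gfap* and *Aqp4*, ordered the groups much as *Ntrk2* did. It was 4228 to 4463 CPM in WT control, 3333 to 3465 in WT with TGF-β, 4913 to 5630 in KO control and 4143 to 4450 in KO with TGF-β. With TGF-β 2 of the 10 were called lower and 0 higher in each genotype, where 5.65% (WT) and 4.93% (KO) of all genes were called lower. At an adjusted p under 0.05 (edgeR), 7 were lower and 1 higher in WT, and 6 lower and 1 higher in KO. Of all genes 14.3% and 11.8% were lower at that limit. The median log2 fold change of the 10 was -0.39 in WT and -0.40 in KO. Against this, *Gja1*, the gap junction protein connexin 43, was higher in every stimulated library (419 to 456 CPM) than in any control library (326 to 356 CPM), as were 23.3% of all genes. Its log2 fold change, the highest of the 10, was 0.35 in WT and 0.33 in KO, under the fold limit. The part of the markers in the *Ntrk2* values was not tested. In bulk libraries, fewer cells of a type and less RNA per cell cannot be told apart.

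For *Bdnf* the difference between WT and KO was 0.11 without TGF-β (95% interval -0.20 to 0.42) and 0.20 with it (-0.08 to 0.47). For *Gdnf* the values were 0.08 (-0.35 to 0.51) and -0.02 (-0.39 to 0.35), and for *Manf* -0.02 (-0.19 to 0.15) and 0.05 (-0.12 to 0.21). These intervals are narrower than the response to TGF-β of each gene, but they do not show that the genotypes are equal. *Ntrk3* and *Ngfr* were too variable to say as much, with intervals of -1.38 to 0.62 and -2.37 to 2.49 with TGF-β.

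The difference between the responses of the genotypes was tested directly, as an interaction term. Of the 6 genes 0 were called in it, as were 0% of all genes, by edgeR, DESeq2 and limma-voom alike, and at an unadjusted p under 0.05 there were 0 of the 6 and 381 genes (2.82%) overall. The fitted response of *Bdnf* was larger in WT by 0.08 (95% interval -0.33 to 0.50) and that of *Manf* by 0.06 (-0.17 to 0.30). The log2 fold change of *Gdnf* differed by -0.10 (-0.67 to 0.47), and that of *Ntrk2*, which was negative in both genotypes, was nearer 0 in WT by 0.03 (-0.23 to 0.29). The intervals of *Ntrk3* (-1.59 to 1.10) and *Ngfr* (-4.38 to 4.09) leave room for differences as large as the responses themselves. That of *Ntrk2* reaches 0.29, beside responses of -0.26 in WT and -0.29 in KO, so it leaves much the same room. With the genotypes averaged, the log2 fold changes were 1.24 for *Bdnf* (adjusted p = 4.06e-05), 0.96 for *Gdnf* (0.000543), 0.72 for *Manf* (4.05e-05), -0.28 for *Ntrk2* (0.00489), -0.80 for *Ntrk3* (0.0518) and 2.29 for *Ngfr* (0.0649). Again 3 were called higher and 0 lower, against 8.33% and 6.75% of all genes. These p-values take the WT and KO libraries as independent. Differences between replicates 1 and 2 ran together across the genotypes (r = 0.49 in control, 0.25 with TGF-β), which the fit leaves out. *Ntrk3* and *Ngfr* were close to the limit here: 9 of 20 alternatives called *Ntrk3* lower and 5 of 19 called *Ngfr* higher. For each gene these included a fit added after seeing the data.

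The partners of these genes were then read from lists of their families. Of the neurotrophin ligands and receptors, 11 of the 13 listed were tested, and 4 were higher and 0 lower in each genotype, beside 7.72% higher in WT and 6.61% in KO over all genes, a background that holds for the lists below as well. The median was 0.51 on the log2 scale in WT, 0.27 in KO and about 0 over all genes. *Bdnf*, *Sorcs2* and *Ntf5* were among those called. *Sorcs2*, a sortilin-type receptor that binds proneurotrophins beside p75NTR, was at 59.1 and 69.1 CPM in WT control and 205 and 190 CPM with TGF-β, a rise of 1.62 ± 0.14 (adjusted p = 0.000265), with 1.53 ± 0.14 (0.000389) in KO. *Ntf5*, which encodes neurotrophin-4, another TrkB ligand, had only 12 to 45 counts per library, with 1.42 ± 0.30 in WT (0.0102) and 0.99 ± 0.29 in KO (0.0362), and its call was lost under 4 of 21 alternatives in WT and 9 of 21 in KO. *Ntf3*, the TrkC ligand, had 9 to 31 counts and values of -0.67 and -0.97 that passed in neither genotype. With the genotypes averaged it was called lower (-0.82), where 6.75% of all genes were. *Sort1*, sortilin itself, stood at -0.18 and -0.28, under the fold limit.

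Of the enzymes that cleave proneurotrophins, 7 of 8 were tested, and 2 were higher in WT and 3 in KO with 0 lower. *Furin* rose by 0.89 ± 0.057 (adjusted p = 0.000122) in WT and 0.87 ± 0.058 (0.000146) in KO, and *Pcsk6*, a related convertase, by 0.98 ± 0.18 (0.00496) and 0.93 ± 0.18 (0.00779), a call that 3 of 21 alternatives lost in KO. *Mmp9* passed in KO alone (1.03 ± 0.24, adjusted p = 0.0173) with 0.65 in WT (adjusted p = 0.0681), and the difference between the genotypes did not pass (adjusted p = 1.00). The call of *Mmp9* was lost under 2 of 21 alternatives. Of the adaptors and co-receptors of Trk and p75NTR, 16 were tested, with 1 higher in WT, a share no larger than that of all genes. It was *Rtn4r* (0.81 ± 0.23, adjusted p = 0.0329), which stood at 0.14 in KO (interaction adjusted p = 1.00), where 0 were called. *Rtn4r* had 21 to 45 counts per library, and 12 of 21 alternatives lost the call.

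Of the GDNF family, 10 of 13 were tested, with 4 higher and 1 lower in each genotype (median 0.71 in WT and 0.55 in KO). *Gdnf* itself was among the higher ones in both. *Ncam1*, an alternative GDNF receptor, rose from 167 and 148 CPM to 451 and 558 CPM in WT, by 1.68 ± 0.13 (adjusted p = 0.000175), and by 1.44 ± 0.13 (0.000352) in KO. *Sdc3*, a heparan sulfate proteoglycan that binds GDNF, rose by 0.83 ± 0.12 and 0.82 ± 0.12. *Gfra2*, the neurturin co-receptor, passed in WT (0.71 ± 0.11, adjusted p = 0.0027), its value in KO being 0.49 (interaction adjusted p = 1.00), and 2 of 21 alternatives lost the call. *Artn*, which encodes artemin, passed in KO (1.62 ± 0.46, adjusted p = 0.0327), with 0.85 in WT and 12 to 98 counts per library (interaction adjusted p = 1.00), and 4 of 21 alternatives lost the call. *Gfra4* fell by 1.48 on the log2 scale in WT (adjusted p = 0.0082) and by 1.49 in KO (0.0155), from 24 to 44 counts in control libraries to 8 to 16 in stimulated ones. That call was lost under 1 of 20 alternatives in WT and 4 of 20 in KO, with values as small as -0.81 and -0.67. The GDNF receptor itself gave no call: *Gfra1* stood at -0.27 ± 0.090 (adjusted p = 0.0529) and -0.43 ± 0.089 (0.00995), and *Ret* at 0.71 ± 0.36 (adjusted p = 0.169) and 0.61 ± 0.34 (0.213). In KO *Gfra1* thus passed the p limit, as 11.8% of all genes did in that direction, but not the fold limit.

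*Manf* was read beside its relatives and beside the unfolded protein response. Of 6 genes listed with the MANF family and KDEL receptors, 3 were higher and 0 lower in each genotype, *Manf* itself being among the higher ones. *Kdelr3*, a receptor that returns ER proteins from the Golgi, rose from 21.6 and 24.2 CPM to 64.3 and 74.6 CPM in WT, by 1.60 ± 0.095 (adjusted p = 9.23e-05), and by 1.83 ± 0.097 (7.28e-05) in KO. *Kdelr2* rose by 0.94 ± 0.080 and 0.96 ± 0.081. *Cdnf*, the only relative of *Manf*, had values of -0.33 (adjusted p = 0.293) and -0.46 (0.184). Of 18 unfolded protein response genes, 5 were called higher in WT and 4 in KO with 0 lower, and 14 of 18 were higher at an adjusted p under 0.05 in each genotype, as were 18.6% and 16.6% of all genes. Their median was 0.50 in WT and 0.48 in KO, below *Manf*. *Hyou1*, an ER chaperone, rose the most of the list (1.13 ± 0.095 and 1.06 ± 0.095), and *Hspa5*, the chaperone BiP, rose by 0.71 ± 0.080 and 0.74 ± 0.081. *Ddit3*, which marks lasting ER stress, stood at -0.20 (adjusted p = 0.181) and -0.10 (0.528).

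The ER stress element, CCAAT and CCACG with 9 bases between them, is the binding sequence known for unfolded protein response genes. It was in 7 of the 16 genes of that list with a window and in 0.137% of all 27025 genes with one. None of the 11 windows of *Bdnf*, *Gdnf*, *Ntrk2* and *Ngfr* held it. *Manf* had no window and was not searched. The elements of the 4 holders called higher in WT are shown with the fixed ends in capitals, written so that CCAAT comes first. *Hspa5* is at chr2:34772025-34772043 and *Pdia6* at chr12:17266491-17266509 (both plus strand). On the minus strand are one of the 2 of *Hsp90b1* at chr10:86705638-86705656 and *Creld2* at chr15:88819520-88819538.
Hspa5: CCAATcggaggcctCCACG
Pdia6: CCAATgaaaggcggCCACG
Hsp90b1: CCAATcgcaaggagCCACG
Creld2: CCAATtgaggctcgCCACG
Their log2 fold changes with TGF-β were 0.71, 0.78, 0.67 and 0.61 in WT and 0.74, 0.72, 0.57 and 0.55 in KO, where *Hsp90b1* and *Creld2* were not called. In WT the call was lost under 2 of 21 alternatives for *Hspa5*, 4 for *Hsp90b1* and 7 for *Creld2*. In KO it was lost under 2 for *Hspa5* and 4 for *Pdia6*. The other 3 holders, *Calr*, *Dnajc3* and *Syvn1*, stood at 0.58, 0.53 and 0.40 in WT and 0.54, 0.57 and 0.40 in KO, under the fold limit.

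**Figure D5:**
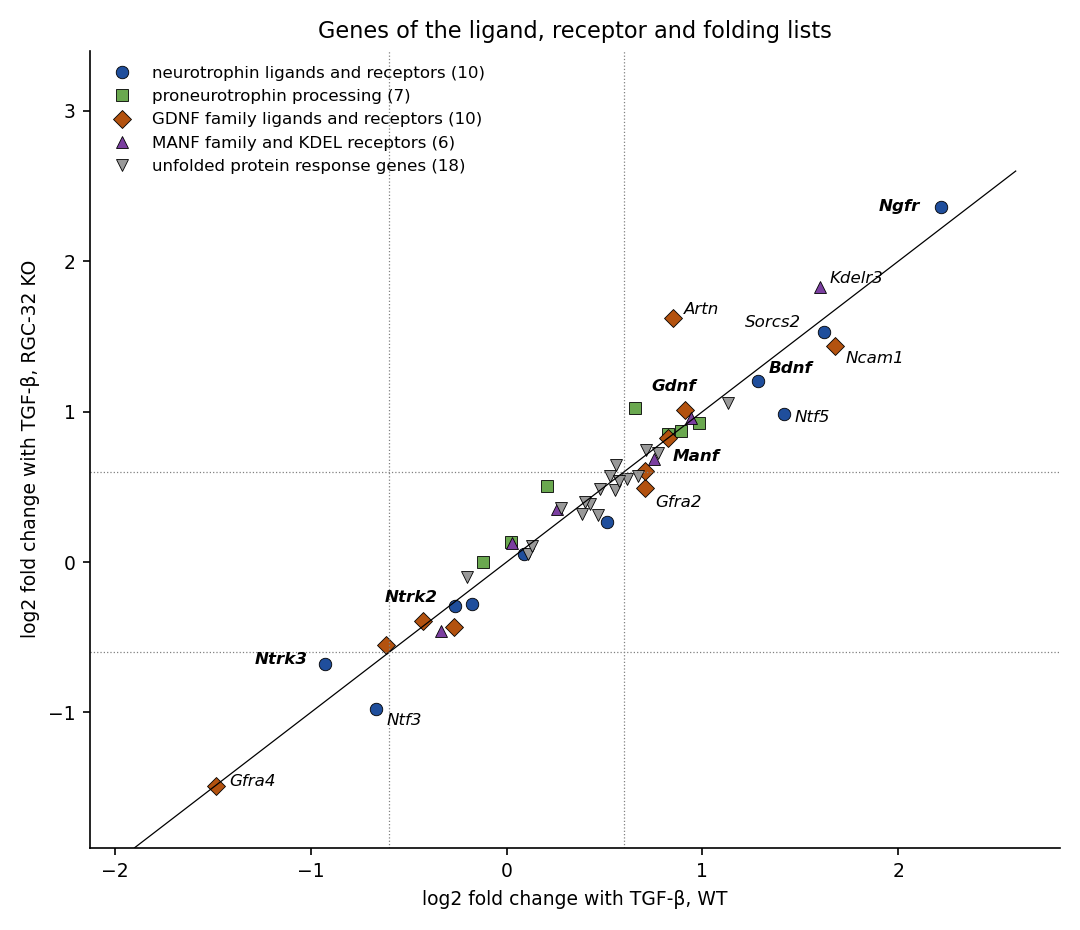
Log2 fold change with TGF-β in WT (horizontal) against RGC-32 KO (vertical) for tested genes of 5 lists, with the 6 genes in bold; the solid line marks equal values and the dotted lines the fold limit of 0.6. Most points lie close to the line, with *Artn* above it (0.85 and 1.62) and *Ntf5* below it (1.42 and 0.99).

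The summed levels of markers of other cells differed with TGF-β as well. The 10 markers of meningeal fibroblasts summed to 5419 to 6786 CPM in WT control, 10233 to 11666 in WT with TGF-β, 4551 to 4710 in KO control and 7945 to 7981 in KO with TGF-β, and 3 of the 10 were called higher in each genotype and 1 lower in WT. Most of that sum was *Col1a1*, *Col1a2* and *Col3a1*, collagen genes of which *Col1a1* is a known target of TGF-β. Over the list 5 of 10 values were positive, with a median of 0.08 in WT and 0.12 in KO, and *Dcn* was at 306 and 332 CPM in WT control against 214 and 202 CPM with TGF-β. The 5 mural cell markers in the count table, of 8 listed, summed to 2340 to 2687 CPM in WT control, 5269 to 5975 CPM in WT with TGF-β, 2102 to 2227 CPM in KO control and 5079 to 5696 CPM in KO with TGF-β, most of it *Acta2*, while *Des*, *Kcnj8* and *Abcc9* were not in the table. Of 6 markers of Schwann cells, in which p75NTR is well known, 4 were in the table, *Sox10* had 2 to 17 counts per library, and the sum ran from 188 to 196 CPM in control libraries and from 220 to 256 CPM in stimulated ones. Of these 4, 1 was called higher and 0 lower in each genotype, beside 7.72% of all genes higher in WT and 6.61% in KO. Positive values were found for 3 of 4 in WT (median 0.43) and 2 of 4 in KO (median 0.03). The oligodendrocyte lineage markers (9 of 10 in the table, *Mog* not) summed to 383 to 394 CPM in WT control, 548 to 632 in WT with TGF-β, 403 to 404 in KO control and 471 to 591 in KO with TGF-β. Of these 9, 2 were called higher and 2 lower in each genotype, and *Cspg4*, also on the mural list, went from 38.5 and 25.4 CPM to 257 and 302 CPM in WT. In WT *Pdgfra* fell from 13.8 and 12.2 to 7.13 and 6.01 CPM, and *Cnp* from 126 and 151 to 83.1 and 80.6 CPM. Positive values were found for 6 of 9 in WT (median 0.24) and 5 of 9 in KO (median 0.22). Over all genes 5.65% were called lower in WT and 4.93% in KO. The 5 neuronal markers in the table, of 10 listed, summed to 306 to 317, 378 to 397, 282 to 339 and 354 to 385 CPM in the same order, with 1 called higher in each genotype and 1 lower in KO, while *Rbfox3*, *Snap25*, *Dcx*, *Nefl* and *Slc17a7* were not in the table. The part of these cells in the values of *Bdnf*, *Gdnf*, *Manf* and *Ngfr* was not tested.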

How the data were processed

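Per the labels, unstranded libraries were made from total RNA of astrocytes; how RNA was selected is not given in the sources used here. The submitters' processing notes name STAR, Cufflinks, DESeq and mm10. The authors aligned reads with STAR and deposited raw counts per gene for 13937 genes, and FPKM values from Cufflinks, scaled to transcript length and depth. The counting program, the annotation and the rule for leaving genes out of the count table are not given in the sources used here. The authors' own fold changes and p-values were not used.

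Counts were fitted with edgeR 4.0.16 (R 4.3.3, TMM, filterByExpr, quasi-likelihood F test, two-sided) over all 8 libraries with 1 mean per group, with Benjamini-Hochberg adjustment over the 13509 genes tested. DESeq2 1.42.0 and limma 3.58.1 gave alternatives, the latter also on log2(FPKM + 0.1) and log2(FPKM + 1). The chi-square statistic per degree of freedom between replicates was 6.26 to 10.4, so no pair was the same library. Intervals are 95%, and limits from 0 counts cover counting error only. Named genes are the 6, the called genes and the ligands and receptors of their family lists, and the 3 nearest in pattern to each. The genes and lists were chosen with earlier results of these data known. The fits were tested on simulated counts. Genes were placed on GRCm38 by symbol in GENCODE M21. Results for some genes of the lists are not reported here.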

Additional observations from a re-analysis of the deposited data

How the results depend on the processing

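The 3 calls for *Bdnf*, *Gdnf* and *Manf* with TGF-β were kept under DESeq2, limma-voom, other filters and normalizations, only the 4 libraries compared, and each library left out, in WT, in KO and over both genotypes. On FPKM the number of the 6 genes called was 2 (pseudocount 0.1) and 1 (pseudocount 1) in WT and 1 with either in KO, because *Manf* and *Gdnf* came under the fold limit, and over both genotypes it was 3 (*Bdnf*, *Gdnf*, *Ntrk3*) and 2 (*Bdnf*, *Ngfr*). With 1 library left out, the number stayed at 3 in each genotype and ran from 3 to 5 over both, being 5 without WT control replicate 1 and without KO control replicate 1, when *Ntrk3* and *Ngfr* passed. Without both control libraries of replicate 2, an alternative added after seeing the data, it was 3. A minimum of 10 counts in every library left no value for *Ngfr*, and a fit of only 4 libraries none for the interaction and the comparisons over both genotypes or treatments. The fits between genotypes and of the interaction gave 0 of the 6 throughout. No called value changed sign. Of 857 values of the 6 genes under alternatives, 54 had another sign than the reported one, none of them for TGF-β against control.

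The replicate numbers are not said to pair libraries. With the replicate block 3 of the 6 genes were called in WT, KO and over both genotypes, as without it. Differences between replicates 1 and 2 ran together across genotypes within a treatment (r = 0.49 and 0.25) and against each other across treatments (-0.34 to -0.51), and a crossed replicate block, added after seeing the data, called 5 of the 6 in WT, KO and over both.

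Over all genes, the 1806 calls in WT became 4450 with no fold threshold, 1101 on FPKM with pseudocount 1 and 1200 without WT TGF-β replicate 2, the 1559 in KO became 3835 and 1024, and the 2037 over both genotypes 6496 and 1109. The 5, 6 and 17 calls between genotypes (without TGF-β, with it, over both) ran from 0 to 13, 0 to 36 and 3 to 61. Upper quartile scaling moved the share of higher among called genes over both genotypes from 55.2% to 43.9%, and *Ntrk3* then passed there (-0.89, adjusted p = 0.0347). *Ngfr* had 0 counts in control replicate 2 of both genotypes, which allows up to 3. These libraries were no shallower than those of control replicate 1 (15965007 against 14920561 counts in WT, 15915399 against 14944949 in KO).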

Other observations

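Ependymal genes, which serve the motile cilia of ventricle-lining cells, were lower with TGF-β. Of 6 markers 5 were tested, and 5 were called lower in WT and 3 in KO, where 5.65% and 4.93% of all genes were; all 5 were lower at an adjusted p under 0.05 in each genotype (edgeR), with medians of -0.72 and -0.65 on the log2 scale. Their summed level was 360 to 416 CPM in WT control, 227 to 255 CPM in WT with TGF-β, 382 to 429 CPM in KO control and 275 to 285 CPM in KO with TGF-β. The 10 microglial markers summed to 1133 to 1383 CPM, 1047 to 1380 CPM, 1204 to 1326 CPM and 1061 to 1177 CPM in the same order, with 1 called higher and 0 lower in each genotype, beside 7.72% and 6.61% of all genes called higher; over both genotypes 1 was higher and 1 lower. Of 7 endothelial markers 6 were tested, and their sum was 104 to 132 CPM over the control libraries and 71.1 to 84.4 CPM over the stimulated ones. Of these 6, 1 was called higher in each genotype, and 1 was called lower in WT and 2 in KO. Over all genes 7.72% were called higher and 5.65% lower in WT, and 6.61% and 4.93% in KO.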
